A study of Mus musculus with 8 samples.

Results

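The nuclear genes of respiratory complex I were followed in RNA-seq libraries of the mouse outflow tract (OFT), the arterial pole of the embryonic heart. Members were the rows of the deposited table whose symbol begins with *Nduf*, which gave 50 of 14608 genes. By role they were 37 genes of complex I subunits, 8 assembly factors named *Ndufaf*, *Ndufa4* with its paralogue *Ndufa4l2*, and 3 annotated processed pseudogenes. The libraries came from embryonic day 11.5 and comprised 4 labelled control and 4 labelled Mib1V943F/+ Gata6STOP/+. The latter embryos carried 1 missense allele of *Mib1*, a ubiquitin ligase of NOTCH ligands, and 1 null allele of the transcription factor gene *Gata6*, placed in trans. Both alleles are germline alleles, so every cell of the OFT carried them. The control samples are titled WT, and their genotype label reads only Control. Each library was a pool, of 3 individuals in the series text and of 4 pairs of OFT in the methods, which also give 3 pools per genotype where the table holds 4 libraries. The number of embryos behind a value is therefore unknown, and p-values measure the spread between pools.

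Complex I is the entry point of electrons from NADH into the respiratory chain. A matrix arm binds NADH and passes its electrons along flavin and iron-sulphur clusters to ubiquinone, and a membrane arm uses the released energy to pump protons. The catalytic core is split between the nuclear genome, which encodes the electron-carrying subunits of the matrix arm, and the mitochondrial genome, which encodes the proton-pumping subunits of the membrane arm. Around this core sit many nuclear-encoded accessory subunits, and separate assembly factors help to build the enzyme without staying in it. Heart muscle is among the tissues richest in the enzyme, and the OFT holds muscle around cushions of mesenchyme.

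The nuclear members lie on many chromosomes, so their promoters were searched for letters that could be shared. RefSeq promoter windows on GRCm38.p6, from 250 bases before to 50 bases after the start site, were found for 40 of the 50 members. The letters ATGGCGGC are a core of the motif of the zinc finger factor YY1. They occurred on either strand in 7 of these 40 members (17.5%), against 580 of the 10773 table genes with a window (5.38%). In 6 of these 7 members the letters began 13 to 38 bases after the start site, as they began after it in 355 of the 580 table genes with a match (61.2%). In 5 of the 7 members the A was the first base of a start codon in the GENCODE M21 annotation. The match thus overlaps coding sequence in those 5 genes (*Ndufa9*, *Ndufb5*, *Ndufs4*, *Ndufs6* and *Ndufs7*). The 5 stretches are shown with the match in capitals, each on the strand of its gene and with its span beside the name.

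Ndufs7 (chr10:80249465-80249494, plus strand): ccgaggccaagATGGCGGCgctggcgggtg
Ndufs6 (chr13:73328433-73328462, minus strand): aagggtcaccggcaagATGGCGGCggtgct
Ndufs4 (chr13:114388045-114388074, minus strand): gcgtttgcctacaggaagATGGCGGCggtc
Ndufa9 (chr6:126849095-126849124, minus strand): ttgtgggagaagATGGCGGCcgccgtccgc
Ndufb5 (chr3:32737071-32737100, plus strand): ccggtgtagccATGGCGGCcatgagcctgc

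The letters GCATGCGC, a core of the motif of nuclear respiratory factor NRF1, were held by 5 of the 40 members (12.5%) and by 5.79% of table genes with a window. Since GCATGCGC and its reverse complement overlap, the capitals below run over every matching base on both strands. The subunit gene *Ndufa11* and the assembly factor gene *Ndufaf5* are shown as examples in which the letters of the 2 strands run together, as they also do in *Ndufaf4*.

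Ndufa11 (chr17:56717692-56717721, plus strand): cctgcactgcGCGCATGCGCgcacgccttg
Ndufaf5 (chr2:140170652-140170681, plus strand): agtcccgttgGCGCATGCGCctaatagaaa

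The ETS letters CCGGAAG were in 6 of the 40 members and 19.3% of table genes with a window, and the letters CCAAT were in 35.0% and 43.2%. Subunit genes with the YY1 letters had a median log2 fold change of −0.18 (n = 6, from −0.35 to 0.02) and those without them −0.23 (n = 26). The YY1 genes included both *Ndufs7*, at −0.35, and *Ndufs4*, at 0.02. The difference between the medians was not tested, and a match is a description of sequence, not of binding.

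The labels were first compared with the RNA levels of the mutated genes. *Gata6* had 236, 279, 271 and 261 CPM (read counts relative to library size, as scaled by the authors) in the control-labelled libraries and 213, 284, 276 and 224 CPM in the mutant-labelled ones. *Mib1* had 138, 107, 109.9 and 132 CPM in the control-labelled libraries and 123, 137, 123 and 126 CPM in the mutant-labelled ones. Neither level separated the groups, so every direction below rests on the labels. The *Mib1* allele is a missense one, so its RNA level could not check them. For *Gata6*, the paper reports by quantitative PCR that mRNA in these mutants was reduced to the predicted level. The *Gata6* means here differed by −4.76%. Reads on listed genes ran from 10669420 in control replicate 2 to 30469165 in mutant replicate 3, and 1 read was worth 0.0325 to 0.0948 CPM.

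Most complex I genes had estimates below 0 in the mutant-labelled libraries, by small amounts that the limma test did not call for any single gene after adjustment. Of the 50 members, 46 had a log2 fold change below 0, against 49.6% of all genes. The median over the members was −0.20 on the log2(CPM + 0.5) scale, a difference of −12.7%, and the range ran from −0.35 for *Ndufs7* to 0.17 for *Ndufaf2*. Over all 14608 genes the median was 0.00. In pools of whole tissue, fewer cells of a type and less RNA per cell cannot be told apart. The limma test with Benjamini-Hochberg adjustment over all genes left 0 of 50 members and 0.00% of all genes past 0.05, with a smallest adjusted p of 0.214 among the members. At an unadjusted limma p under 0.05, 23 members were lower and 0 higher, where 6.62% of all genes were lower and 5.45% higher. The 4 mutant-labelled libraries lay wholly below the 4 control-labelled ones for 14 members and wholly above them for 0, against 3.90% and 3.20% of all genes. On recovered reads, the edgeR quasi-likelihood test also called 0 members, as did the likelihood ratio test (0.554% of all genes lower, 0.178% higher). DESeq2 called 4 members, all lower (*Ndufv1*, *Ndufb8*, *Ndufa10* and *Ndufs7*), where 1.16% of the genes with an adjusted p were lower and 0.372% higher.

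The size of these counts rested in part on 2 control-labelled libraries. Control replicates 2 and 3 held the highest value of 33 of the 37 subunit genes, 17 in replicate 2 and 16 in replicate 3. Over all 14608 genes, replicate 2 was highest for 3227 and replicate 3 for 1418. Replicate 2 was also the library with the fewest reads and replicate 3 was not, with 24833953, and the part of depth was not tested. Without control replicate 3, 13 members were lower at an unadjusted limma p under 0.05, where 4.65% of all genes were lower and 3.37% higher. With control replicates 2 and 3 both left out, a check chosen after seeing the data, 5 members were lower (3.22% of all genes), 42 had a log2 fold change below 0, and the median was −0.11. The 5 were *Ndufv1*, *Ndufb8*, *Ndufa10*, *Ndufs3* and the pseudogene *Ndufab1-ps*.

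**Figure D1:**
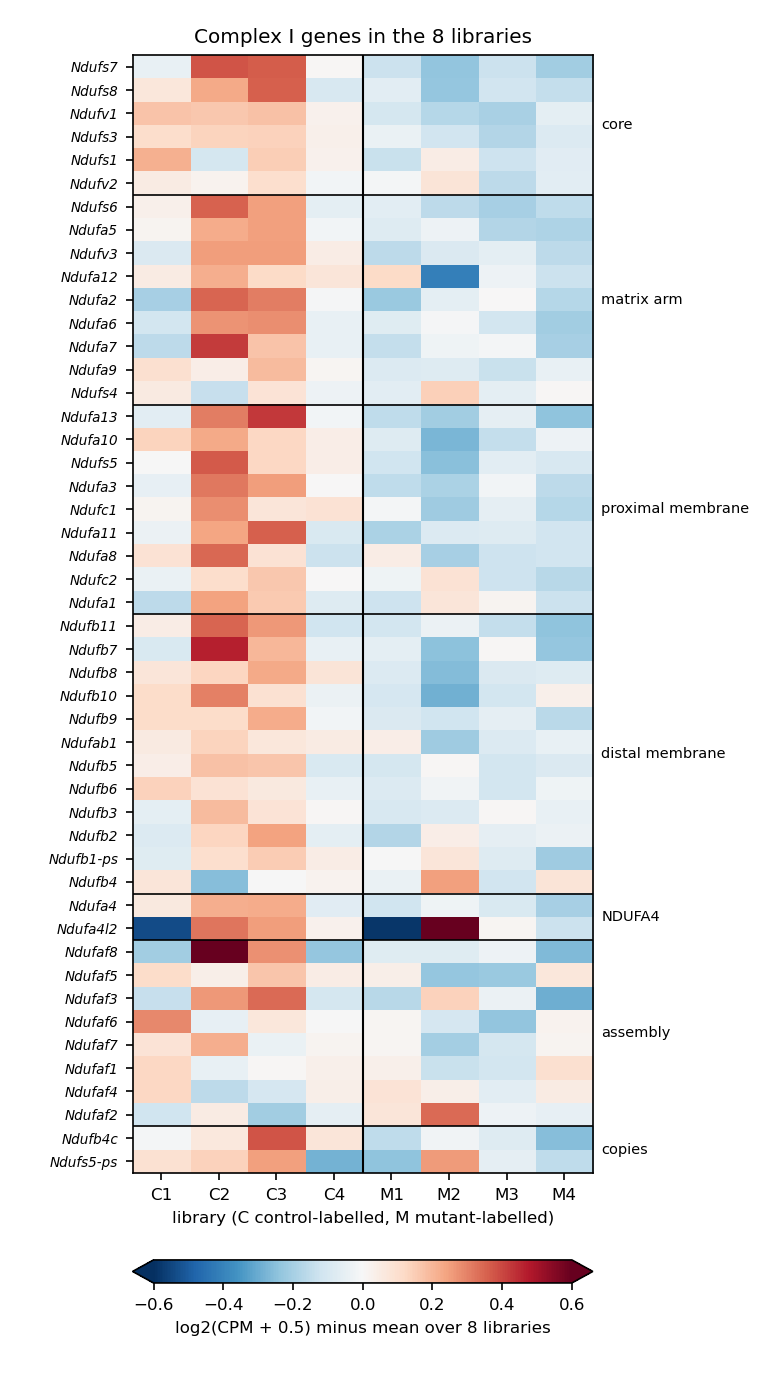
Heat map of log2(CPM + 0.5) minus the gene's mean over 8 libraries for 48 of the 50 members (rows, grouped by role; *Ndufab1-ps*, at 0 in 3 libraries, is among those left out) in the 4 control-labelled (C1 to C4) and 4 mutant-labelled (M1 to M4) libraries, with colours saturated beyond 0.6 in either direction. C2 and C3 are red across most subunit rows, C1 and C4 lie near the middle, and the mutant-labelled columns are mostly pale blue.

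The core subunits of the matrix arm, which carry the electrons, were examined first. All 7 core genes had log2 fold changes below 0 (49.6% of all genes), with a median of −0.21. At an unadjusted limma p under 0.05, 5 of 7 were lower (6.62% of all genes). Without control replicates 2 and 3, 2 of 7 were lower at that threshold (3.22% of all genes). *Ndufv1*, which binds NADH and the flavin, had 189, 187, 189 and 170.1 CPM in the control-labelled libraries, replicates 1 to 4, and 155, 149, 146 and 160.3 CPM in the mutant-labelled ones. The groups did not overlap, with means of 184 ± 9.03 and 153 ± 6.52 CPM (SD, n = 4 each). This was a log2 fold change of −0.27 with a standard error of 0.06. Its limma p was 0.00115 unadjusted and 0.214 adjusted, the smallest adjusted value of any member, and its DESeq2 adjusted p was 0.00869. *Ndufv1* was also among the genes that stayed lower without control replicates 2 and 3, at −0.23 (unadjusted limma p 0.0142).

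*Ndufs7*, which holds the last iron-sulphur cluster before ubiquinone, had the most negative log2 fold change of any member in the main limma fit. It had 62.7, 84.2, 83.5 and 65.1 CPM in the control-labelled libraries and 59.2, 54.8, 59.1 and 56.0 CPM in the mutant-labelled ones. The groups did not overlap, but control replicates 1 and 4 lay close to the mutant-labelled values and replicates 2 and 3 far above them. The log2 fold change was −0.35 ± 0.10 (SE; unadjusted limma p 0.00421, adjusted 0.258), and it was −0.16 without control replicates 2 and 3. *Ndufs8*, which carries the iron-sulphur clusters that feed the one of *Ndufs7*, showed the same split among controls, with 59.8, 66.9, 73.3 and 53.3 CPM against 54.7, 48.6, 52.6 and 51.6 CPM. Its groups overlapped, since control replicate 4 lay below mutant replicate 1, and its log2 fold change was −0.28 (unadjusted limma p 0.0123, adjusted 0.321).

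*Ndufs3* lies in the part of the matrix arm next to ubiquinone and carries no cluster of its own. It had 115, 117, 117 and 109 CPM in the control-labelled libraries and 104, 98.6, 94.4 and 101 CPM in the mutant-labelled ones. Every mutant-labelled library was below every control-labelled one, with a log2 fold change of −0.20 ± 0.06 (SE; unadjusted limma p 0.00535, adjusted 0.270). The exact two-sided permutation test over 70 relabellings gave 0.0286, the smallest value it can give, for *Ndufv1*, *Ndufs7* and *Ndufs3* alike.

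*Ndufs1* and *Ndufv2* showed no separation of the groups. *Ndufs1*, the largest subunit of the matrix arm and a carrier of several clusters, had 278, 223, 266 and 245 CPM against 219, 247, 220.4 and 229 CPM, a log2 fold change of −0.14 (unadjusted limma p 0.0993). *Ndufv2*, the cluster-bearing partner of *Ndufv1*, had 159.9, 157, 166 and 153 CPM against 153, 163, 138 and 148 CPM, a log2 fold change of −0.08 (unadjusted limma p 0.259). *Ndufv1* and *Ndufv2* encode neighbouring proteins of the NADH-binding tip. Their intervals overlapped, at −0.40 to −0.13 and −0.22 to 0.07 (95% CI), and the difference between them was not tested.

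The accessory subunits of the matrix arm had a median log2 fold change of −0.23 and a range from −0.29 to 0.02. At an unadjusted limma p under 0.05, 5 of 9 genes were lower (6.62% of all genes). Without control replicates 2 and 3, 0 of 9 were lower at that threshold (3.22% of all genes). *Ndufs6*, a zinc-binding subunit near the NADH-binding tip, had 60.7, 76.3, 70.8 and 57.2 CPM in the control-labelled libraries and 57.0, 53.3, 51.8 and 53.5 CPM in the mutant-labelled ones. Control replicate 4 exceeded mutant replicate 1 by less than 1 CPM, so the groups were apart but only just, and the log2 fold change was −0.29 ± 0.09 (SE; unadjusted limma p 0.00816, adjusted 0.291). *Ndufa5* and *Ndufa9* were the other 2 accessory genes of this arm whose groups did not overlap, at −0.23 and −0.17; these and the accessory genes singled out below were chosen after their values were seen. *Ndufa9* sits where the matrix arm meets the membrane and holds the YY1 letters shown above. *Ndufs4*, which holds the same letters and whose loss causes a Leigh-like disease, had 70.8, 61.9, 72.0 and 66.7 CPM against 65.3, 75.4, 65.3 and 68.4 CPM. Its groups overlapped throughout and its log2 fold change was 0.02, with a 95% CI from −0.15 to 0.18.

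In the proximal membrane arm all 9 accessory genes had log2 fold changes below 0 (49.6% of all genes), with a median of −0.23. At an unadjusted limma p under 0.05, 6 of 9 were lower (6.62% of all genes). Without control replicates 2 and 3, 1 of 9 was lower at that threshold (3.22% of all genes). *Ndufa10*, related to nucleoside kinases, had 169, 181, 168 and 158 CPM in the control-labelled libraries and 146, 127, 139.7 and 151 CPM in the mutant-labelled ones. The groups did not overlap, and the log2 fold change was −0.26 ± 0.07 (SE; unadjusted limma p 0.00295, adjusted 0.249; DESeq2 adjusted p 0.0391). It differed little without control replicates 2 and 3, at −0.22 (unadjusted limma p 0.03). *Ndufa13*, also known as GRIM19, stood at −0.33, but its groups overlapped, with 80.5 to 113 CPM against 71.1 to 81.2 CPM. Without control replicates 2 and 3 its value was −0.12. *Ndufs5* and *Ndufc1* were the remaining genes of this group whose libraries did not overlap, at −0.26 and −0.23.

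The accessory subunits of the distal membrane arm had the least negative median of the subunit classes, −0.15. The difference between classes was not tested. At an unadjusted limma p under 0.05, 5 of 12 genes were lower (6.62% of all genes). Without control replicates 2 and 3, 1 of 12 was lower at that threshold (3.22% of all genes). *Ndufb8* had 135, 140.1, 149.6 and 135 CPM in the control-labelled libraries and 121, 107, 121 and 121 CPM in the mutant-labelled ones. The groups did not overlap, with means of 139.8 ± 6.99 and 117 ± 6.98 CPM (SD, n = 4 each). Its log2 fold change was −0.25 ± 0.07 (SE; unadjusted limma p 0.00252, adjusted 0.238; DESeq2 adjusted p 0.0331). *Ndufb9*, a member of the LYR family that docks an acyl carrier protein, had 115, 115, 125 and 106 CPM against 101, 98.3, 103 and 95.5 CPM, again with no overlap. Its log2 fold change was −0.21 ± 0.07 (SE; unadjusted limma p 0.00740, adjusted 0.284), and −0.15 without control replicates 2 and 3. *Ndufab1*, the acyl carrier protein itself, was also lower in every mutant-labelled library than in any control-labelled one, but missed the unadjusted threshold (log2 fold change −0.15, unadjusted limma p 0.0522). The row named *Ndufb1-ps* stood in for the subunit NDUFB1, since RefSeq places a gene *Ndufb1* within its span and M21 calls it a noncoding RNA of a bidirectional promoter. It had a log2 fold change of −0.11 (unadjusted limma p 0.217).

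**Figure D2:**
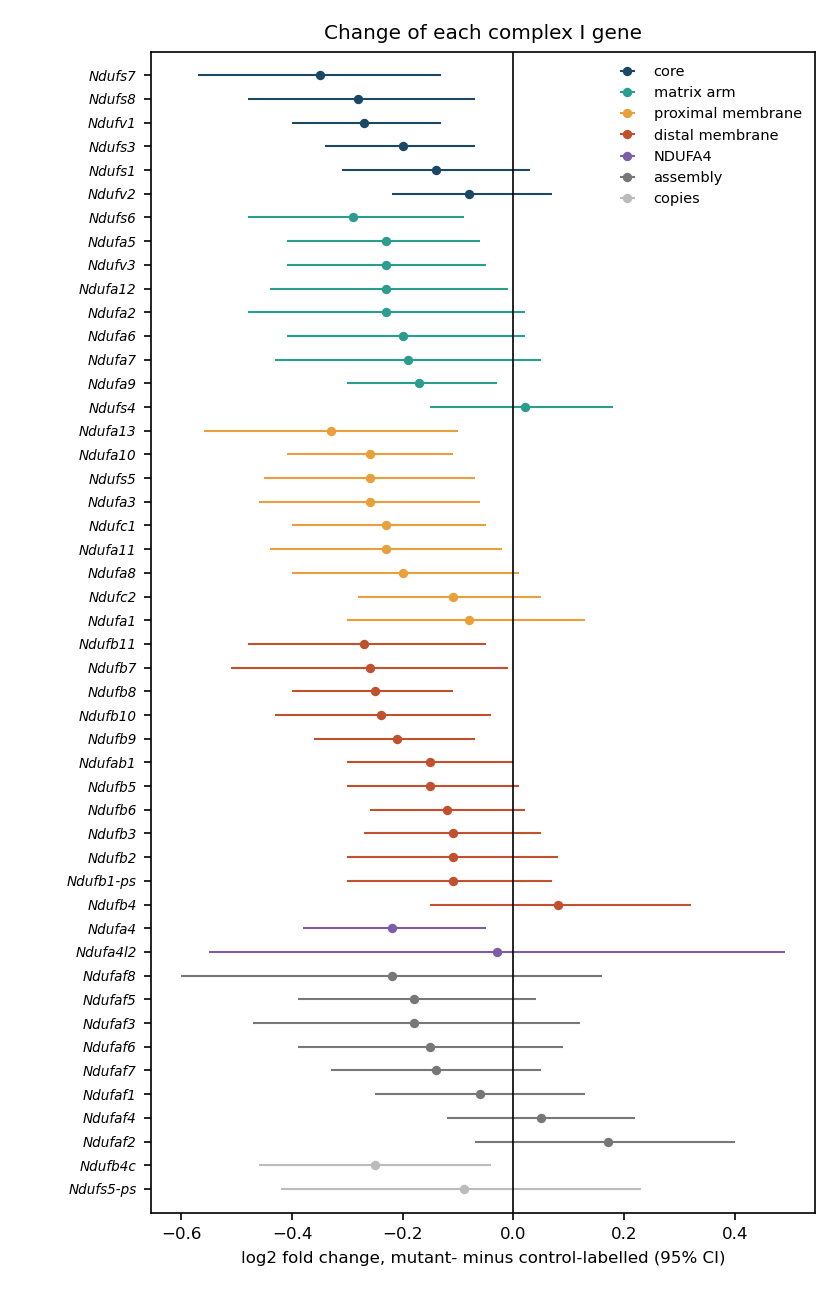
Log2 fold change (mutant-labelled minus control-labelled, n = 4 each) of 48 members, with points for the limma estimate and lines for its 95% CI, grouped and coloured by role. Points of the core, matrix arm and proximal membrane groups lie mostly between −0.35 and −0.08, and the intervals of all 8 *Ndufaf* genes cross 0.

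None of the 8 assembly factors named *Ndufaf* was lower or higher at an unadjusted limma p under 0.05 (6.62% and 5.45% of all genes). The groups overlapped for each, where they lay apart for 3.90% (lower) and 3.20% (higher) of all genes. At such shares, counts of 0 among 8 genes say little. The 8 *Ndufaf* genes had a median log2 fold change of −0.14 and a range from −0.22 to 0.17. Their RNA levels were lower than those of most subunit genes, with control-labelled means from 9.16 CPM for *Ndufaf8* to 41.4 CPM for *Ndufaf4*. *Ndufaf5*, a hydroxylase of NDUFS7, had 15.3, 14.5, 15.9 and 14.6 CPM against 14.5, 11.99, 12.1 and 14.9 CPM (log2 fold change −0.18, unadjusted limma p 0.103; −0.21 and p 0.0486 with the GC trend removed, as described below, the only *Ndufaf* gene past 0.05 in that fit). *Ndufaf8*, its partner, had 7.02, 12.7, 10.004 and 6.90 CPM against 7.75, 7.76, 7.997 and 6.74 CPM (−0.22, unadjusted limma p 0.230). In *Ndufaf8* only control replicates 2 and 3 stood above the rest, and the sign turned to 0.11 without them.

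*Ndufaf7*, a methyltransferase of the matrix arm, had 27.9, 30.7, 25.7 and 26.7 CPM against 26.6, 22.8, 24.5 and 26.7 CPM (−0.14, unadjusted limma p 0.134). *Ndufaf3* and *Ndufaf4* act together on the ubiquinone-binding part of the matrix arm. *Ndufaf3* had 12.1, 16.1, 17.1 and 12.4 CPM against 11.9, 14.8, 13.04 and 10.8 CPM (−0.18, unadjusted limma p 0.212; 0.03 without control replicates 2 and 3). *Ndufaf4* had 45.9, 37.6, 39.1 and 43.0 CPM against 44.5, 43.05, 40.1 and 43.4 CPM (0.05, unadjusted limma p 0.535; −0.05 without control replicates 2 and 3 and −0.10 with the GC trend removed).

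*Ndufaf1*, which acts early on the membrane arm, had 22.2, 19.6, 20.3 and 20.7 CPM against 20.7, 18.4, 18.8 and 21.7 CPM (−0.06, unadjusted limma p 0.508). *Ndufaf6*, needed for an early membrane intermediate, had 12.2, 9.58, 10.4 and 9.90 CPM against 10.04, 9.23, 8.35 and 10.1 CPM (−0.15, unadjusted limma p 0.200). *Ndufaf2*, a late factor related to the subunit NDUFA12, had 12.9, 14.6, 12.1 and 13.5 CPM against 14.8, 17.9, 13.75 and 13.6 CPM, and at 0.17 had the highest log2 fold change of any member in the main limma fit (unadjusted limma p 0.153). Only mutant replicates 1 and 2 lay above the highest control-labelled value. The 12 measured assembly factors with other names had a median log2 fold change of −0.10. At an unadjusted limma p under 0.05, 3 were lower and 0 higher (6.62% and 5.45% of all genes). The 3 were *Ecsit* (−0.26), *Acad9* (−0.17) and *Dmac2* (−0.18), the first 2 being partners of NDUFAF1.

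*Ndufa4*, first purified with complex I and later assigned to cytochrome c oxidase, had 169, 189, 189 and 155 CPM against 149, 159, 152 and 141 CPM. Its groups overlapped through control replicate 4, and its log2 fold change was −0.22 (unadjusted limma p 0.0156, adjusted 0.332). The hypoxia-induced paralogue *Ndufa4l2* had 11.1, 20.6, 19.6 and 16.7 CPM against 10.8, 25.9, 16.5 and 14.9 CPM. Replicate 1 was the lowest library in both groups, the log2 fold change was −0.03 with a 95% CI from −0.55 to 0.49, and its sign changed with the processing.

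The 3 pseudogenes bear on the values of their parents, because near-identical copies can share reads. *Ndufb4c* held 60.5% to 71.8% of the reads of the pair *Ndufb4* and *Ndufb4c* and was lower, at −0.25 (unadjusted limma p 0.0215, groups not overlapping), while *Ndufb4* stood at 0.08. Summed, the pair had 47.9, 46.0, 56.7 and 49.1 CPM against 43.6, 49.9, 44.3 and 43.0 CPM, a log2 fold change of −0.14 (exact permutation p 0.143). The sign of *Ndufb4* alone thus turned once the copy was added, so its value is uncertain. *Ndufs5-ps* held 10.5% to 17.6% of its pair, and the sum stood at −0.24 where *Ndufs5* alone stood at −0.26. *Ndufab1-ps*, the member with the lowest level, had 5.15, 0, 0 and 2.54 CPM against 2.71, 0.331, 0 and 1.68 CPM, and its log2 fold change of −0.14 (unadjusted limma p 0.860) changed sign with the pseudocount.

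Summed over the 37 subunit genes, the RNA level was 3264, 3567, 3582 and 3128 CPM in the control-labelled libraries and 2963, 2929.7, 2935 and 2927 CPM in the mutant-labelled ones. The groups did not overlap, with means of 3385 ± 225 and 2939 ± 16.6 CPM (SD, n = 4 each), a difference of −13.2%. The mutant-labelled sums lay close together, while control replicates 2 and 3 stood above control replicates 1 and 4. The 8 *Ndufaf* genes together had 148 to 156 CPM in the control-labelled libraries and 139 to 151 CPM in the mutant-labelled ones, which overlap.

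Markers of heart muscle were lower in the mutant-labelled libraries as well. All 14 cardiomyocyte markers of the list were measured and none was at 0 in any library. All 14 had log2 fold changes below 0, 13 of 14 at an unadjusted limma p under 0.05 (6.62% of all genes). After adjustment limma called 0 of the 14. The likelihood ratio test called 7 and DESeq2 8, all lower (0.554% and 1.16% of the genes tested). Their summed level was 27642 to 32472 CPM in the control-labelled libraries and 21629 to 25872 CPM in the mutant-labelled ones, with means that differed by −22.1%. Among the control-labelled libraries the marker sum was highest in replicate 1 and the subunit sum in replicate 3. Both sums were lowest in control replicate 4. Among the mutant-labelled libraries the marker sum was highest in replicate 4. Their subunit sums, 2927 to 2963 CPM, lay too close together to be ordered. The part of cardiomyocyte content in the complex I difference was not tested.

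Other cell types were checked in the same way, with at most 2 genes a list past an unadjusted limma p under 0.05. Of all genes, 6.62% were lower and 5.45% higher at that threshold, so such counts in short lists say little. The second heart field list had 2 of 4 measured genes higher and a summed level of 33.8 to 39.5 CPM against 49.9 to 72.8 CPM. The adjusted p of its gene *Isl1* was 0.142 with limma, 0.00142 with the likelihood ratio test and 0.000619 with DESeq2. The endothelial list had 2 of 8 genes lower, the smooth muscle list 1 of 5 lower and 1 of 5 higher, and the macrophage list 1 of 5 lower. Cushion mesenchyme (8 genes), epicardium (5), erythroid cells (6), neural crest derivatives (3 of 6 measured) and pharyngeal epithelium (2 of 5 measured) had 0 in either direction. Erythroid transcripts summed to 1632 to 3326 CPM against 1391 to 4928 CPM, so their level overlapped between the groups. *Epcam*, *Cdh1* and *Foxa2* were not in the table.

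**Figure D3:**
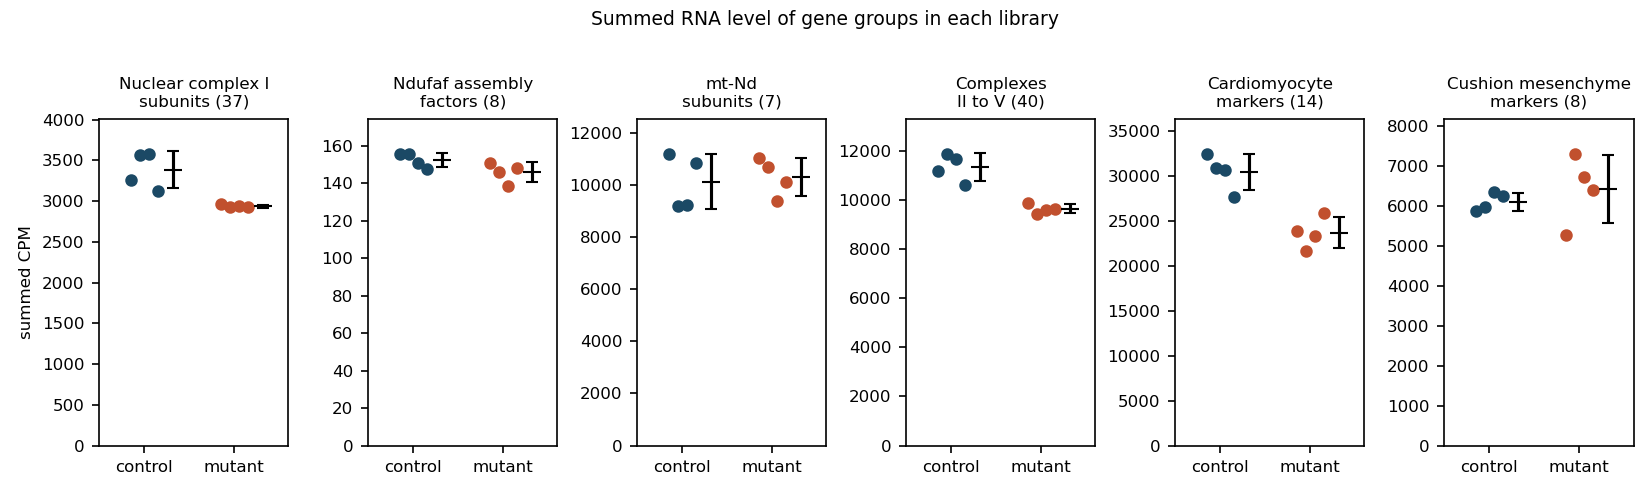
Summed CPM of 6 gene groups in each library (points, replicates 1 to 4 from left to right; black bars, mean and SD, n = 4; all axes start at 0). The control- and mutant-labelled points are apart for the nuclear complex I subunits, complexes II to V and cardiomyocyte markers, and overlap for the *Ndufaf* factors, the mitochondrially encoded *mt-Nd* subunits and cushion mesenchyme.

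The difference also varied with the base composition of the transcripts. Across the 37 subunit genes, the log2 fold change had a Spearman correlation of −0.73 with the GC content of the principal transcript, as a description over genes that share libraries, and of −0.46 across 14594 genes. *Ndufs7* (60.1% GC) and *Ndufa13* (60.4% GC) lay at the GC-rich, more negative end, and *Ndufv2* (42% GC) and *Ndufs4* (43.1% GC) at the AT-rich end near 0. Per library, the correlation of all genes' deviations with GC content was 0.59 and 0.44 in control replicates 2 and 3 and between −0.45 and 0.10 in the other 6. Once each library's trend with GC content was taken out, the correlation over the subunit genes was 0.04.

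The lower level of the members remained after that correction, and its spread over genes narrowed. With the GC trend removed, 27 members were lower and 0 higher at an unadjusted limma p under 0.05 (6.43% and 4.70% of all genes), 21 of them shared with the uncorrected count, and the median was −0.16. All 7 core genes were then lower: *Ndufs1* stood at −0.20 (unadjusted limma p 0.00600) and *Ndufv2* also at −0.20 (p 0.0121), while *Ndufs7* moved to −0.24 (p 0.00362). *Ndufs4* stood at −0.09 (p 0.147). The smallest adjusted limma p among the members was 0.169, so 0 passed the adjusted threshold here as well. The correction left the control-labelled libraries uneven: the members' median deviation from the gene mean was 0.035, 0.134, 0.166 and −0.001 in the control-labelled libraries and between −0.093 and −0.044 in the mutant-labelled libraries. Transcript length had a Spearman correlation of 0.14 with the log2 fold change, and removing its trend left 21 members lower (6.81% of all genes) with a median of −0.15.

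**Figure D4:**
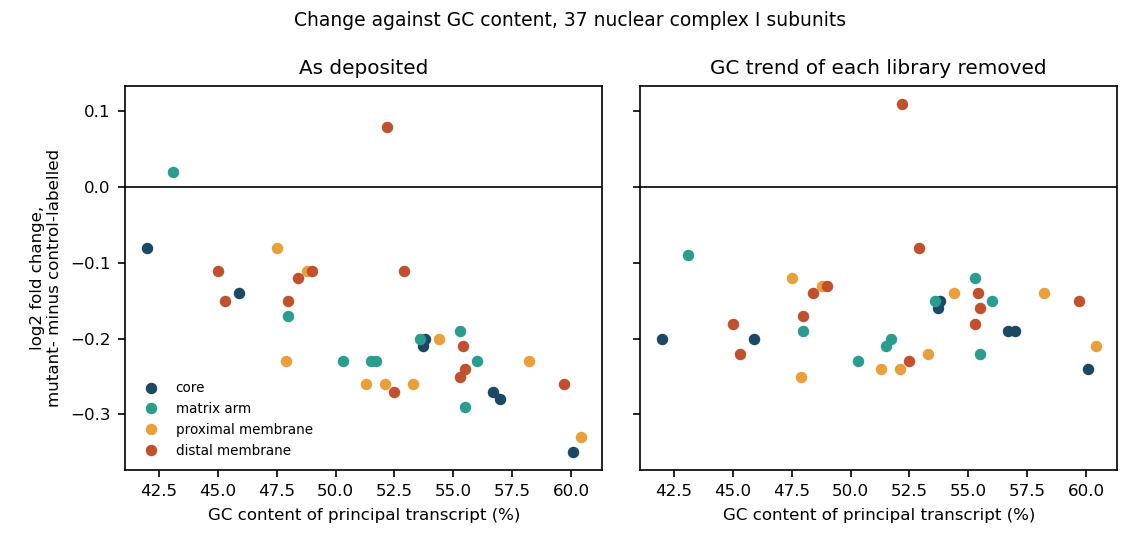
Log2 fold change of the 37 nuclear subunit genes (points, coloured by role) against the GC content of the principal transcript in percent, from the deposited values (left) and with each library's trend with GC content taken out (right). The slope seen on the left (Spearman −0.73) is absent on the right (0.04), where all but *Ndufb4* lie below 0.

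The mitochondrially encoded subunits, which form the proton-pumping core, had log2 fold changes on both sides of 0, and the difference between them and the nuclear genes was not tested. The 7 *mt-Nd* genes had a median log2 fold change of 0.03. At an unadjusted limma p under 0.05, 1 was lower and 0 higher (6.62% and 5.45% of all genes). That gene was *mt-Nd6*, the only subunit encoded on the light strand, with 60.6, 83.9, 61.7 and 86.3 CPM against 67.9, 53.3, 57.0 and 57.2 CPM (−0.30, unadjusted limma p 0.0332). Its groups overlapped. *mt-Nd3* stood at 0.36 (unadjusted limma p 0.0617) and *mt-Nd4l*, whose reading frame overlaps that of *mt-Nd4*, at −0.24 (p 0.186). The 4 most abundant genes, *mt-Nd1*, *mt-Nd2*, *mt-Nd4* and *mt-Nd5*, stood at 0.03, 0.08, 0.06 and −0.06.

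Together the *mt-Nd* genes had 9185 to 11193 CPM in the control-labelled libraries and 9381 to 11024 CPM in the mutant-labelled ones. The sum of the nuclear subunit genes was 29.2%, 38.8%, 38.8% and 28.8% of the mitochondrial sum in the control-labelled libraries and 26.9%, 27.4%, 31.3% and 28.9% in the mutant-labelled ones. Control replicates 2 and 3 again stood apart, and the other 2 control-labelled values fell within the mutant-labelled range.

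The nuclear genes of the other respiratory complexes showed the direction of complex I. Of 40 measured genes of complexes II to V, 31 were lower and 0 higher at an unadjusted limma p under 0.05. Of all genes, 6.62% were lower and 5.45% higher. The median log2 fold change of the 40 was −0.26, and the groups did not overlap for 26, all lower (3.90% of all genes). After adjustment limma called 0 of the 40. The likelihood ratio test called 4 and DESeq2 18, all lower (0.554% and 1.16% of the genes tested). The smallest p was that of *Sdhc*, a membrane anchor of succinate dehydrogenase, with 175, 187, 174 and 169 CPM against 152, 138, 143 and 148 CPM (−0.28, unadjusted limma p 0.000728). Control replicates 2 and 3 held the highest value for 35 of these 40 genes, which is the pattern of the complex I subunits. Over all 14608 genes they held it for 3227 and 1418. Of 13 measured regulators of mitochondrial biogenesis, 2 were lower and 0 higher, with a median of −0.02. The 2 were the coactivator gene *Ppargc1b*, at 17.2, 15.8, 16.01 and 12.1 CPM against 11.8, 9.49, 11.2 and 10.1 CPM (−0.50), and its nuclear receptor partner *Esrra*, at 47.0, 51.7, 55.7 and 46.1 CPM against 41.0, 29.4, 41.0 and 39.4 CPM (−0.41). Neither gene's groups overlapped. The adjusted p of *Ppargc1b* was 0.228 with limma, 0.0396 with the likelihood ratio test and 0.0229 with DESeq2, and that of *Esrra* was 0.240, 0.0616 and 0.0380.

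Levels were compared between subunit genes per length of the principal transcript, since CPM favours long transcripts. In the control-labelled libraries *Ndufb8* was highest at 206 CPM per kb, and *Ndufb9* and *Ndufb7* had 164 and 136 CPM per kb. The lowest were *Ndufab1* at 24.3, *Ndufb2* at 18.9 and *Ndufb4* at 16.1 CPM per kb, a 12.8-fold range. With *Ndufb7*, 31 genes lay between 39.96 and 136 CPM per kb. Core genes were spread through this order, with *Ndufv1* at rank 10 and *Ndufs8* at rank 28 of 37. The low values of *Ndufb4* and *Ndufab1* are those of genes whose reads may be divided with a pseudogene, and those of *Ndufab1* and *Ndufb2* also depend on long annotated transcripts of 2447.5 and 2413 bases. Across the subunit genes, the log2 fold change had a Spearman correlation of −0.21 with the mean level, a description over 37 genes.

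**Figure D5:**
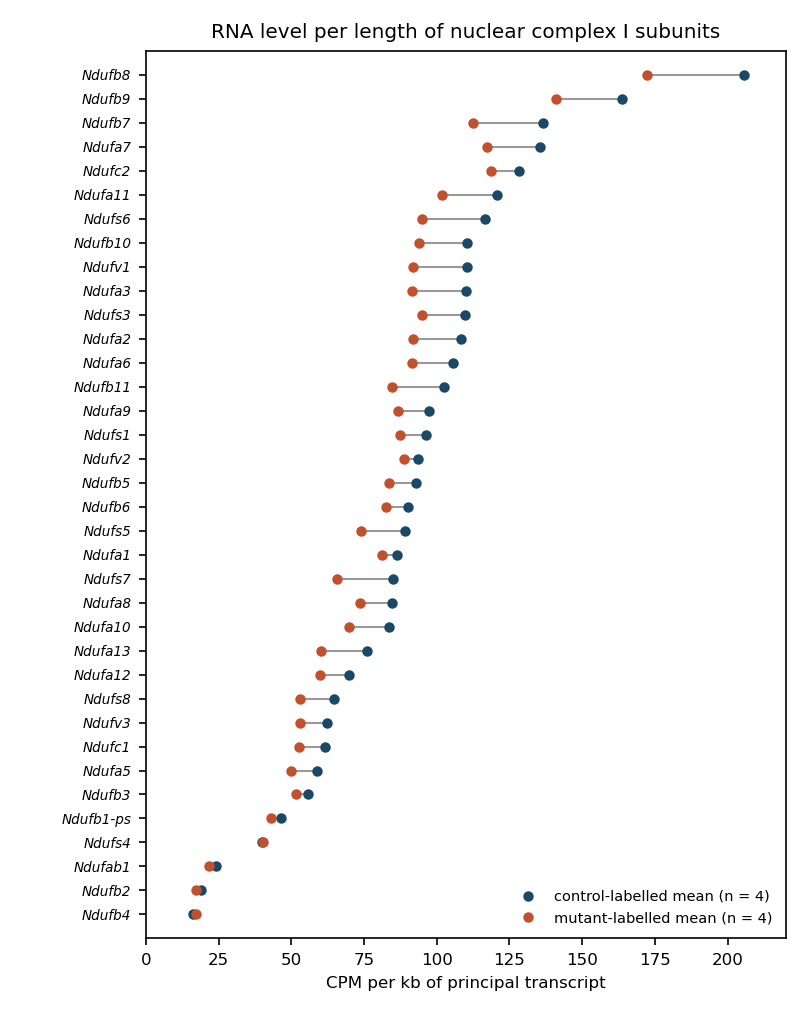
Mean RNA level of 36 nuclear subunit genes in CPM per kb of principal transcript in the control-labelled and mutant-labelled libraries (points, n = 4 each), ordered by the control level. The control point lies to the right for every gene but *Ndufs4* and *Ndufb4*, and the order runs from *Ndufb8* at 206 to *Ndufb4* at 16.1 CPM per kb.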

How the data were processed

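RNA-seq was done on 8 pools of E11.5 OFT, 4 per label. Per the methods, the authors filtered RSEM counts on GRCm38 (Ensembl annotation) at 1 CPM in 3 or more samples, while every gene of the table reached 1 CPM in at least 4. The deposited values are CPM after TMM normalization in edgeR. All 8 columns were used and 0 were left out. Each value was a whole number of reads to within 0.001 reads (100% of values), and recovered reads entered the count tests. Reads per library ran from 10669420 to 30469165, and intervals on such reads would cover counting error only.

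Differences were tested with limma 3.58.1 on R 4.3.3 (lmFit, eBayes with a trend, log2(CPM + 0.5), Benjamini-Hochberg over 14608 genes, threshold 0.05). The test was also run on simulated data, with a spread shared by all genes and planted changes larger than those of the members. That run therefore says nothing on effects as small as those of the members. Single genes had an exact two-sided permutation test over 70 relabellings. Alternatives were edgeR 4.0.16, DESeq2 1.42.0, other pseudocounts, a filter, other scaling, GC and length trends (loess) and left-out libraries. GC content and length came from principal transcripts of GENCODE M21.

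Members and lists were chosen with earlier results of these data known. Named genes were the 7 core subunits, the 8 members with the smallest limma p, every *Ndufaf* gene, *Ndufa4*, *Ndufa4l2*, the members with the highest and lowest level, the *mt-Nd* genes and at most 3 genes of each other list. Lists are described by counts and medians, with no set test. 1 gene that the rule selected is not reported here.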

Additional observations from a re-analysis of the deposited data

Results flagged for a closer look

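In 2 of 100 groups of 4 libraries, 1 library of a complex I gene lay far from the other 3, where chance flags about 5. *Ndufv1* had its lowest control-labelled value, 170.1 CPM, in control replicate 4, against 187 to 189 CPM in the other 3; that value still exceeded every mutant-labelled one. *Ndufb8* had its lowest mutant-labelled value, 106.8 CPM, in mutant replicate 2, against 121 CPM in each of the other 3, which also lay below every control-labelled one.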

How the results depend on the processing

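The count of members past the adjusted threshold was 0 in every limma and edgeR fit and 4 with DESeq2. Members lower at an unadjusted p under 0.05 numbered 23 (6.62% of all genes), and 13 to 26 when 1 library was left out (4.59% to 7.5% of all genes; 13 without control replicate 3), with medians from −0.24 to −0.17. Leaving out control replicates 2 and 3 together gave 5 members (3.22% of all genes) and a median of −0.11. No setting gave a higher member. The replicate numbers did not pair the libraries (same-number correlations of 0.035, −0.185, 0.027 and −0.045); with the replicate block 20 members (5.1% of all genes) were lower. Leaving aside the 2 alternatives chosen after seeing the data (that joint omission and the summing of copies), of 417 values of the 22 named members 398 kept direction and call, 4 gained the threshold with DESeq2 and 15 changed sign. *Ndufb4* stood at −0.14 when summed with its copy. *Ndufa4l2* stood at 0.022, 0.009 and 0.004 with the quasi-likelihood test, the likelihood ratio test and DESeq2, at 0.080 and 0.012 with the GC or length trend removed, at −0.25 to 0.161 without 1 library, and at 0.242 without control replicates 2 and 3. *Ndufab1-ps*, at 0 in 3 libraries, stood at −0.86 with the quasi-likelihood test, −0.71 with the likelihood ratio test and DESeq2, 0.158 with a pseudocount of 0.1, −0.65 to 0.515 without 1 library and −1.67 without control replicates 2 and 3. *Ndufaf4* stood at −0.095 with the GC trend removed, and without control replicates 2 and 3 *Ndufaf4*, *Ndufaf3* and *Ndufaf8* stood at −0.055, 0.033 and 0.109. The cause of these changes was not tested. With a filter of 5 CPM, *Ndufab1-ps* was not tested.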
